A study of Mus musculus with 6 samples.

Results

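Sphingolipid and ceramide metabolism genes were examined in adipose tissue of mice that lack cavin-3, a coat protein of caveolae, the small pits of the plasma membrane that are rich in sphingolipids and very abundant in fat cells. A list of 37 genes was taken, which covers the synthesis of ceramide, its transfer and conversion to other lipids, its breakdown, and the formation and sensing of sphingosine phosphate. Each gene was read by 1 probe set that the array annotation ties to that gene only, and where there were several the brightest on average was used. In this way 36 of the 37 genes were measured, among 19937 genes in all. Cers1, a ceramide synthase, was not measured because its probe set is shared with Gdf1.

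The RNA came from 3 WT and 3 cavin-3 KO mice, 1 array for each mouse, all 10 weeks old and fasted for 6 hours. The methods give a standard chow for the housing of the animals and defined diets for the feeding studies. They do not say which diet the mice of the arrays had. In the KO a cassette of lacZ and neo replaces the whole gene in every cell of the body. The mice descend from targeted C57BL/6N ES cells placed into C57BL/6 blastocysts and bred on with C57BL/6 females. The mice of these experiments came from a single ES cell clone, so a second clone was not compared. Which fat depot was taken is not given in the labels. The methods state that only males were used.

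Ceramide is made in the endoplasmic reticulum, where serine palmitoyltransferase joins serine to a fatty acyl group, a reductase and a ceramide synthase add to the product, and a desaturase finishes it. It is then carried to the Golgi and turned into sphingomyelin or glycosphingolipids, or it is split by ceramidases into sphingosine. Sphingosine kinases turn sphingosine into sphingosine phosphate, which leaves the cell and acts on receptors of the vessel wall and of lymphocytes. In adipose tissue ceramide is known for its link to insulin resistance.

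The targeted gene was checked first. Cavin3 (listed on the array as Prkcdbp) had a log2 signal of 10.46 ± 0.43 in WT and of 6.90 ± 0.19 in KO (SD, n = 3 each). Its fold was 0.0843 (95% interval 0.0578 to 0.123), with an adjusted p of 0.0409 in limma. All 8 adipocyte markers read (among them Adipoq, Plin1 and Fabp4) lay above the median signal, and their mean log2 signal was between 11.91 and 12.12 on every array. The arrays did not sort by genotype. WT replicate 1 correlated best with KO replicate 2, WT replicate 2 with KO replicate 3 and WT replicate 3 with KO replicate 1. Xist, the RNA of the inactive X chromosome, reached 11.14 in the second WT mouse and 11.34 in the third KO mouse, and lay between 3.70 and 6.30 on the other arrays. Uty, a gene of the Y chromosome, was at 3.36 and 3.21 on those 2 arrays and between 7.89 and 8.14 on the others. These 2 arrays therefore do not match the statement that only males were used, and the results are also given without them.

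No sphingolipid gene passed the test. At an adjusted p under 0.05 limma called 0 of the 36 genes, where 0.00575% of all 34760 probe sets were called, and every one of the 36 had an adjusted p of 0.99999. At an unadjusted p under 0.05 the count was also 0 of 36, beside 0.838% of all genes. The test that the methods name, run on the same log2 values, called 0 after adjustment and 1, Sgpp2, at an unadjusted p under 0.05. No share of all genes is given here for that test, since the 0.838% is from limma. The 1 gene is therefore not read as more than the background. In the KO the mean was higher by any amount for 18 genes and lower for 18, and 50.3% of all genes were higher. The median log2 difference, KO minus WT, was 0.0048 over the 36 genes and 0.00085 over all genes. Less RNA in each cell and fewer cells of a type cannot be told apart in tissue RNA of this kind.

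The size of change that these arrays left possible was narrow for most of the genes. For 27 of the 36 (75%) the whole 95% interval of the fold lay within 1.5-fold in either direction, and for all genes this share was 83.7%. The fitted folds ran from 0.696 for Cers3 to 1.14 for Asah1. The 9 genes whose interval reached past 1.5-fold were Sptlc3, Cers3, Cers4, Cers6, Sgms2, Smpd2, Acer3, Sgpp1 and S1pr3. With a term in the fit for WT replicate 2 and KO replicate 3 the intervals of Cers4, Cers6, Smpd2 and S1pr3 also lay within 1.5-fold, which left 5 genes past it and 31 inside (86.1%, all genes 86.6%). In each of the 36 genes the wider of both within-genotype ranges exceeded the difference between the genotype means, as it did in 98.2% of all genes.

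**Figure D1:**
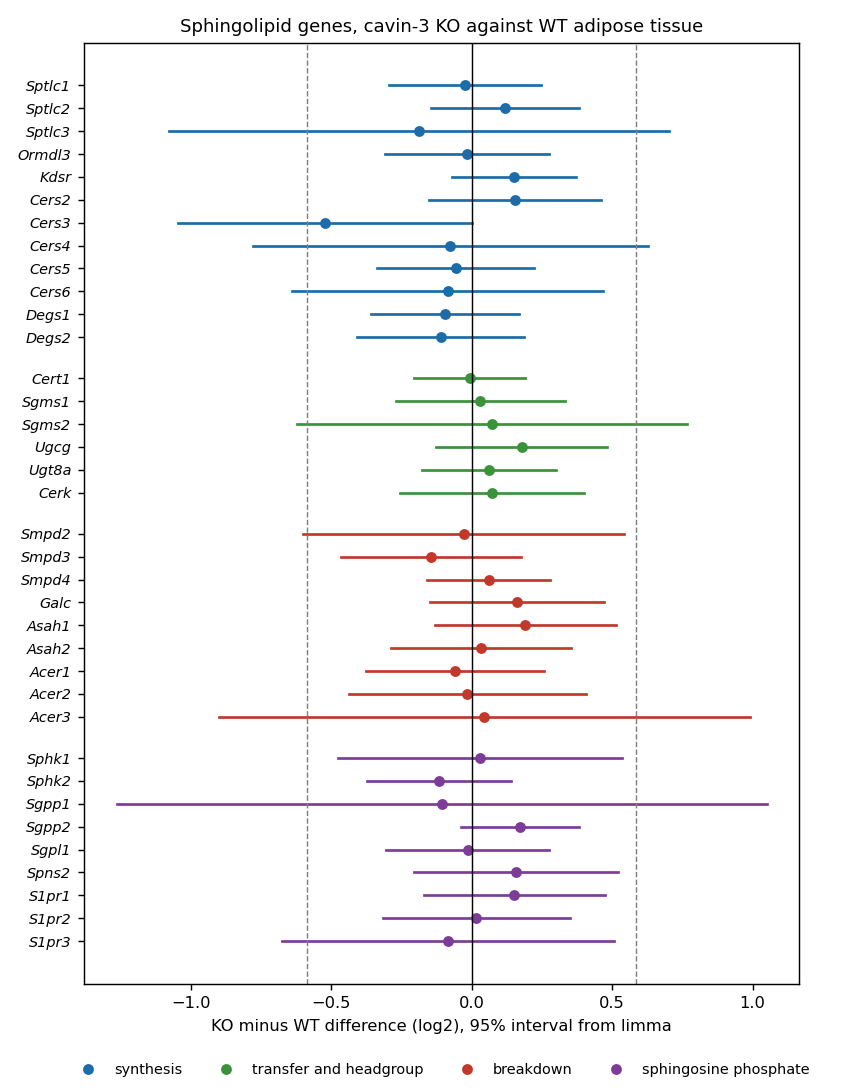
KO minus WT difference in log2 signal of the 36 sphingolipid genes (points) with the 95% interval from limma (bars), coloured by role; the dashed lines stand at 1.5-fold lower and higher. Every interval reaches or crosses 0, and 9 intervals reach past a dashed line.

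The start regions of 6 genes are shown next. Kdsr and Sgpp2 are shown because their WT and KO values did not overlap, Sgpp1 and Acer3 because they varied widely between mice and were highest on the same 2 arrays, and Sptlc3 and Cers3 because they were dim and uneven. Each stretch is the 150 bases before an annotated transcription start, from RefSeq on build GRCm38.p6, 5′ to 3′ on the strand of the gene, and capitals mark CG, the dinucleotide that can be methylated. The starts shown for Cers3, Sgpp2 and Acer3 are not those at the outer edge of the gene.
Kdsr, chr1:106759743-106759892, minus strand: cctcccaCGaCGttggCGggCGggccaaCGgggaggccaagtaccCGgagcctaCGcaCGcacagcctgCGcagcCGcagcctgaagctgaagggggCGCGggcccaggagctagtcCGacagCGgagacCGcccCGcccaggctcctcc
Sgpp2, chr1:78310196-78310345, plus strand: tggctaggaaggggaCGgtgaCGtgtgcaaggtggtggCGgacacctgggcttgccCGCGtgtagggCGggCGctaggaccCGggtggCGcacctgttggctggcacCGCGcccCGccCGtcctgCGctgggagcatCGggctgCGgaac
Sgpp1, chr12:75735730-75735879, minus strand: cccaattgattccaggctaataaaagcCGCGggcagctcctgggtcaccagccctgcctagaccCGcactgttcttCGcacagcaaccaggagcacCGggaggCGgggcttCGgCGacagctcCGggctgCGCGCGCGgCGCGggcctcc
Acer3, chr7:98309543-98309692, minus strand: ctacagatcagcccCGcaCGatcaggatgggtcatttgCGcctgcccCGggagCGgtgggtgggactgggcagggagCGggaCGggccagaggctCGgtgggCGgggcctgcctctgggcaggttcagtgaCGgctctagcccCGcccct
Sptlc3, chr2:139493763-139493912, plus strand: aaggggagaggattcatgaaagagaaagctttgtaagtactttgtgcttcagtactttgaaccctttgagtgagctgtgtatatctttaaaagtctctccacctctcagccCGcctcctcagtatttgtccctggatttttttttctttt
Cers3, chr7:66743354-66743503, plus strand: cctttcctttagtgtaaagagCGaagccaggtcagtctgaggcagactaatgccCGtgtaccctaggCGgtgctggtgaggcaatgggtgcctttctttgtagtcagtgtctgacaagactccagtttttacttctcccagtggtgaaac
The stretches before Kdsr, Sgpp2, Sgpp1 and Acer3 held 16, 16, 15 and 11 CG, and those before Sptlc3 and Cers3 held 1 and 3. Sgpp2, with 16, was dim as well.

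Start regions of 33 measured genes were found, and Smpd3, Asah1 and S1pr1 were not among them. In windows of 300 bases (250 before the start and 50 after) the 33 genes had a median of 21 CG, from 1 in Sptlc3 to 53, and the 15613 measured genes with a window had a median of 16. The 6 genes below the median signal of all probe sets had a median of 14 CG, from 1 to 40. The other 27 had a median of 22, from 2 to 53. The letters GGGCGG, on either strand, were found in 23 of the 33 windows (69.7%) and in 51.8% of all windows of measured genes. TATAAA was in 0 of the 33 windows, and 11.6% of all had it. CCAAT was in 7 windows (21.2%, all measured genes 37.5%) and CACGTG in 5 (15.2%, all measured genes 8.54%). These are matches of letters, and methylation and binding were not measured.

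The 12 measured synthesis genes included 3 with a higher and 9 with a lower KO mean, and their median log2 difference was -0.07. The subunits of serine palmitoyltransferase, which starts the pathway, showed no called difference. Sptlc1 had a log2 signal of 7.81, 8.12 and 8.11 in WT replicates 1 to 3 and of 8.05, 7.95 and 7.99 in KO replicates 1 to 3. Sptlc2 read 8.93, 9.14 and 9.26 in WT and 9.21, 9.19 and 9.29 in KO. The WT and KO values of both subunits overlapped, and WT replicate 1 was the lowest array for each. The folds were 0.984 (0.816 to 1.19) for Sptlc1 and 1.09 (0.906 to 1.30) for Sptlc2. Sptlc3, the alternative catalytic subunit, was dim and uneven, at 5.01, 5.35 and 4.30 in WT and 4.70, 5.28 and 4.12 in KO. Its difference had opposite signs in the 2 subsets of arrays, -1.24 between KO replicate 3 and WT replicate 2 and 0.34 between the other KO and WT arrays. Ormdl3, an inhibitor of serine palmitoyltransferase, had a difference of -0.02.

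Kdsr, the reductase of the step that follows, was 1 of the 2 genes whose WT and KO values did not overlap. It read 9.47, 9.42 and 9.50 in WT and 9.56, 9.55 and 9.74 in KO. All 3 KO mice were above all 3 WT mice, by a gap of 0.04 on the log2 scale. The fold was 1.11 (0.954 to 1.29), with an adjusted p of 0.99999 in limma. Between KO replicate 3 and WT replicate 2 the difference was 0.32, and between the other arrays it was 0.07. The 2 genes make up 5.56% of the 36, and 4.61% of all genes had values that did not overlap.

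Among the ceramide synthases, which attach acyl chains of different length, Cers2 makes the very long ceramides. Cers2 read 10.69, 10.93 and 11.08 in WT and 11.17, 11.04 and 10.95 in KO. The groups overlapped, WT replicate 1 was lowest and KO replicate 1 was highest. The fold of Cers2 was 1.11 (0.901 to 1.38). Cers3, the synthase known from skin and testis, had the smallest unadjusted p of the 36 genes, 0.0501. It was dim, at 4.99, 5.49 and 4.95 in WT and 4.40, 5.003 and 4.47 in KO. KO replicate 2 lay among the WT values, and the remaining KO mice lay below all of them. The log2 difference of Cers3 was -0.52 ± 0.22 (SE), the fold was 0.696 (0.484 to 1.0002) and the adjusted p was 0.99999 in limma. It was uneven between arrays, at -1.02 between KO replicate 3 and WT replicate 2 and -0.28 between the other KO and WT arrays.

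Cers4, Cers5 and Cers6 differed by -0.07, -0.06 and -0.09. Cers4 varied more between mice than between genotypes, at 9.26, 8.66 and 9.35 in WT and 9.35, 9.25 and 8.46 in KO. Cers6, which makes shorter ceramides, varied likewise, at 9.29, 8.51 and 8.91 in WT and 8.94, 9.01 and 8.51 in KO. For both synthases WT replicate 2 and KO replicate 3 were the 2 lowest arrays. Degs1, the desaturase that completes ceramide, read 10.26, 10.53 and 10.23 in WT and 10.31, 10.24 and 10.19 in KO. WT replicate 2 stood above the other arrays, which lay within the same narrow range in both genotypes. The fold of Degs1 was 0.937 (0.780 to 1.12), and Degs2, a related and dim desaturase, differed by -0.11.

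The 6 genes that move ceramide or give it a headgroup included 5 with a higher and 1 with a lower KO mean, with a median difference of 0.07. Ugcg, which makes glucosylceramide, read 7.71, 7.43 and 7.86 in WT and 7.83, 7.80 and 7.91 in KO. The groups overlapped, and WT replicate 2 was the lowest array. The fold of Ugcg was 1.13 (0.916 to 1.40), and its difference was 0.48 between KO replicate 3 and WT replicate 2 and 0.03 between the other arrays. Ugt8a, which makes the galactosylceramide of myelin, was among the dim probe sets at 3.78, 3.71 and 3.73 in WT and 3.72, 3.72 and 3.96 in KO. Its fold was 1.04 (0.884 to 1.23), and KO replicate 3 alone stood above the rest. Cert1, the carrier of ceramide to the Golgi, stayed within a log2 range of 0.11 over all 6 mice. The sphingomyelin synthases Sgms1 and Sgms2 differed by 0.03 and 0.07. Sgms2, the enzyme of the plasma membrane, was uneven, at 7.19, 6.73 and 6.19 in WT and 6.97, 6.98 and 6.38 in KO. Cerk, the ceramide kinase, differed by 0.07.

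The 9 breakdown genes included 5 with a higher and 4 with a lower KO mean, with a median difference of 0.03. Asah1, the ceramidase of the lysosome, had the highest fold of the 36 genes, 1.14 (0.913 to 1.43). It read 9.61, 9.95 and 10.02 in WT and 9.97, 10.01 and 10.18 in KO. WT replicate 1 was the lowest array and KO replicate 3 the highest, while the other mice overlapped. Without WT replicate 1 the log2 difference of Asah1 went from 0.19 to 0.067. Galc, which removes galactose from galactosylceramide in the lysosome, read 7.17, 7.23 and 7.24 in WT and 7.43, 7.13 and 7.57 in KO. The lowest value was that of KO replicate 2, and the other KO mice lay above all WT mice. The fold of Galc was 1.12 (0.903 to 1.39).

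The neutral sphingomyelinases, which release ceramide from sphingomyelin, differed by -0.03 for Smpd2, -0.14 for Smpd3 and 0.06 for Smpd4. Smpd2 was lowest in WT replicate 2 and KO replicate 3, at 8.75, 8.36 and 8.65 in WT and 8.86, 8.77 and 8.05 in KO. Asah2, a ceramidase that works at neutral pH, and the alkaline ceramidases Acer1 and Acer2 differed by 0.03, -0.06 and -0.015. Acer3, a further alkaline ceramidase, split the mice across genotype. It read 7.23, 6.22 and 6.18 in WT and 6.11, 7.25 and 6.40 in KO. WT replicate 1 and KO replicate 2 were level with each other, and every other mouse was lower. The fold of Acer3 was 1.03, and its interval reached from 0.536 to 1.99.

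The 9 genes that make, remove, export or sense sphingosine phosphate included 5 with a higher and 4 with a lower KO mean, with a median difference of 0.02. Sphk1, a sphingosine kinase, read 7.33, 6.66 and 6.95 in WT and 7.11, 7.20 and 6.71 in KO. Both genotypes spanned nearly the same values, and WT replicate 2 and KO replicate 3 were lowest. The fold of Sphk1 was 1.02 (0.719 to 1.45), and Sphk2, the other kinase, differed by -0.12. Sgpl1, the lyase that destroys sphingosine phosphate for good, differed by -0.014.

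Sgpp2, a phosphatase that returns sphingosine phosphate to sphingosine, was the other gene whose values did not overlap. It was dim, at 5.05, 4.99 and 5.05 in WT and 5.30, 5.12 and 5.20 in KO. All 3 KO mice were above all 3 WT mice, by a gap of 0.06 on the log2 scale. The fold was 1.13 (0.974 to 1.30), with an adjusted p of 0.99999 in limma. The difference was 0.21 between KO replicate 3 and WT replicate 2, which are single arrays, and 0.16 between the rest. Since the values of Sgpp2 did not overlap, both differences had to be above 0. Its relative Sgpp1 varied more than any other gene of the list, at 9.87, 8.10 and 8.68 in WT and 8.72, 9.31 and 8.30 in KO. The spread of Sgpp1 ran over 1.77 on the log2 scale within WT, and the difference between genotypes was -0.11. The interval of its fold was the widest of the 36, from 0.417 to 2.07.

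The exporter and the receptors overlapped between genotypes. S1pr1, the receptor that keeps the endothelial barrier tight and lets lymphocytes leave lymph nodes, read 9.69, 9.27 and 9.62 in WT and 9.71, 9.59 and 9.74 in KO. WT replicate 2 was the lowest array, and the other mice were close to each other. The fold of S1pr1 was 1.11 (0.889 to 1.39), and its difference was 0.47 between KO replicate 3 and WT replicate 2 and -0.0070 between the other arrays. S1pr2 and S1pr3, further receptors of sphingosine phosphate, differed by 0.02 and -0.08. S1pr3 ranged within WT from 8.19 in replicate 2 to 9.16 in replicate 3, and its KO values of 8.65, 8.72 and 8.43 lay inside that range. Spns2, the exporter of endothelial cells, was at 1.12-fold (0.867 to 1.43). The 9 endothelial markers had mean log2 signals of 9.58, 9.44 and 9.83 in WT and 9.71, 9.62 and 9.74 in KO. This mean was lowest in WT replicate 2, as S1pr1 was, but highest in WT replicate 3, where S1pr1 was not. Kdr and Esam were lowest in WT replicate 1, as Spns2 was, and Cldn5 in KO replicate 3. The KO mean was higher for 7 of these markers and lower for 2, and 0 were called. Their part in the receptor values was not tested.

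The pattern that many of the genes shared ran across genotype. WT replicate 1 and KO replicate 2 were the 2 highest or the 2 lowest arrays in 13 of the 36 genes (36.1%, all genes 21.3%). Highest there were Cers6, Sgms2, Acer3, Sphk1 and Sgpp1, and lowest were Sptlc1, Ormdl3, Degs2, Galc, Asah2, Acer1, Spns2 and S1pr2. WT replicate 2 and KO replicate 3 stood out in the same way in 9 genes (25%, all genes 26.2%). Cers4, Cers6, Sgms1, Smpd2, Sphk1, Sgpp1 and S1pr3 were lowest on them, and Acer1 and S1pr2 were highest. WT replicate 3 and KO replicate 1 did so in 7 genes (19.4%, all genes 14.6%). There Cers2, Cers4, Cers5, Sgms1, Sgpl1 and Spns2 were highest and Acer3 was lowest. A gene can be counted under more than 1 of these pairs. The arrays were first seen to pair in this way over all genes, which include these, so the counts are given as a description.

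**Figure D2:**
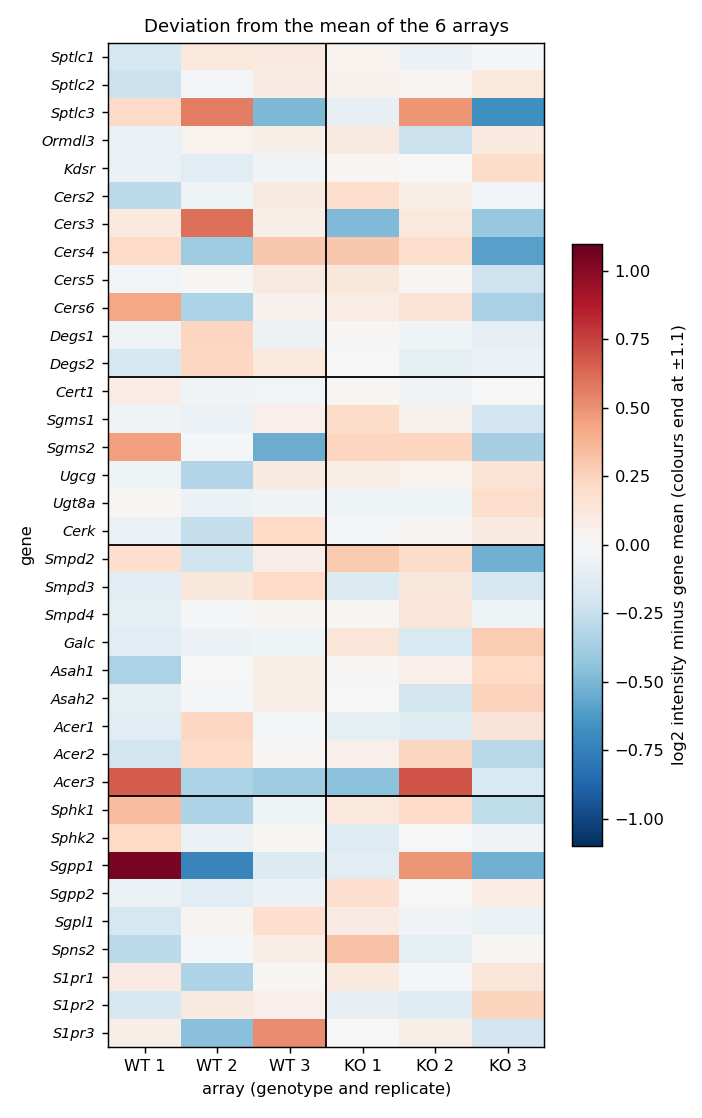
Log2 signal of each of the 36 sphingolipid genes on each array, as the deviation from the mean of that gene over the 6 arrays; red is above and blue below that mean, and lines part the 4 roles and both genotypes. Sgpp1 and Acer3 are high in WT replicate 1 and KO replicate 2, and Cers4, Cers6 and Smpd2 are low in WT replicate 2 and KO replicate 3.

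Markers of other tissues moved with the same arrays. All 6 smooth muscle markers, among them Acta2 and Myh11, were highest in WT replicate 1 and KO replicate 2, with mean log2 signals of 10.99 and 10.85 against 8.06 to 9.68 on the other arrays. Of the 4 epididymis markers read, 1 had the same order, Adam7, at 10.33 and 9.19 on those 2 arrays and between 3.67 and 4.51 on the others. Lcn5, Lcn8 and Rnase10 were dim and did not share it, the latter pair being highest in KO replicate 3. All 8 skeletal muscle markers, among them Acta1 and Ckm, were highest in WT replicate 2 and KO replicate 3, with means of 8.65 and 8.77 against 5.73 to 6.68. The same held for 5 of 6 brown adipocyte markers, with means of 7.14 and 7.10 against 5.41 to 5.62. Liver markers ran with genotype in part, since 5 of 5 read had a higher KO mean and the mean of the list was 6.38, 6.14 and 5.39 in WT and 7.40, 6.02 and 6.80 in KO. Limma called 0 of these 5, and 1, Apoh, had an unadjusted p under 0.05. Of the 6 lymphocyte markers, with a mean of 4.74 to 5.07, 2 had a higher and 4 a lower KO mean, and 0 were called. Cd3g, a chain of the T cell receptor complex, was dim, at 0.746-fold (0.606 to 0.919) with no overlap between genotypes. Its adjusted p was 0.99999 in limma, and the related chains Cd3e and Cd3d overlapped between genotypes. The part of these tissues and cells in the sphingolipid values was not tested.

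The enzymes known from skin were dim here. Sptlc3, Cers3 and Acer1 were among the 6 sphingolipid genes below the median signal of all probe sets, with Degs2, Ugt8a and Sgpp2. Mean signals of the 6 epidermis markers read were 5.92, 6.42 and 4.98 in WT and 5.73, 6.17 and 5.69 in KO, and 2 of the 6 lay above the median. Sptlc3 and the epidermis mean were both highest in WT replicate 2 and next in KO replicate 2. Of the single epidermis markers only Krt5 had this order, at 8.23 and 7.28 on those arrays. Krt1, Lor and Cdsn were highest in WT replicate 2 but not next in KO replicate 2. Krt14 was highest in KO replicate 2 and Krt10 in KO replicate 3. The urothelium markers, 6 of 6 read, had a mean of 8.97 in WT replicate 2 and between 6.87 and 7.39 elsewhere. The part of these epithelia in the values of Sptlc3 and Cers3 was not tested. Above the median signal, 30 genes remained, of which 16 had a higher and 14 a lower KO mean, and their median difference was 0.02.

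**Figure D3:**
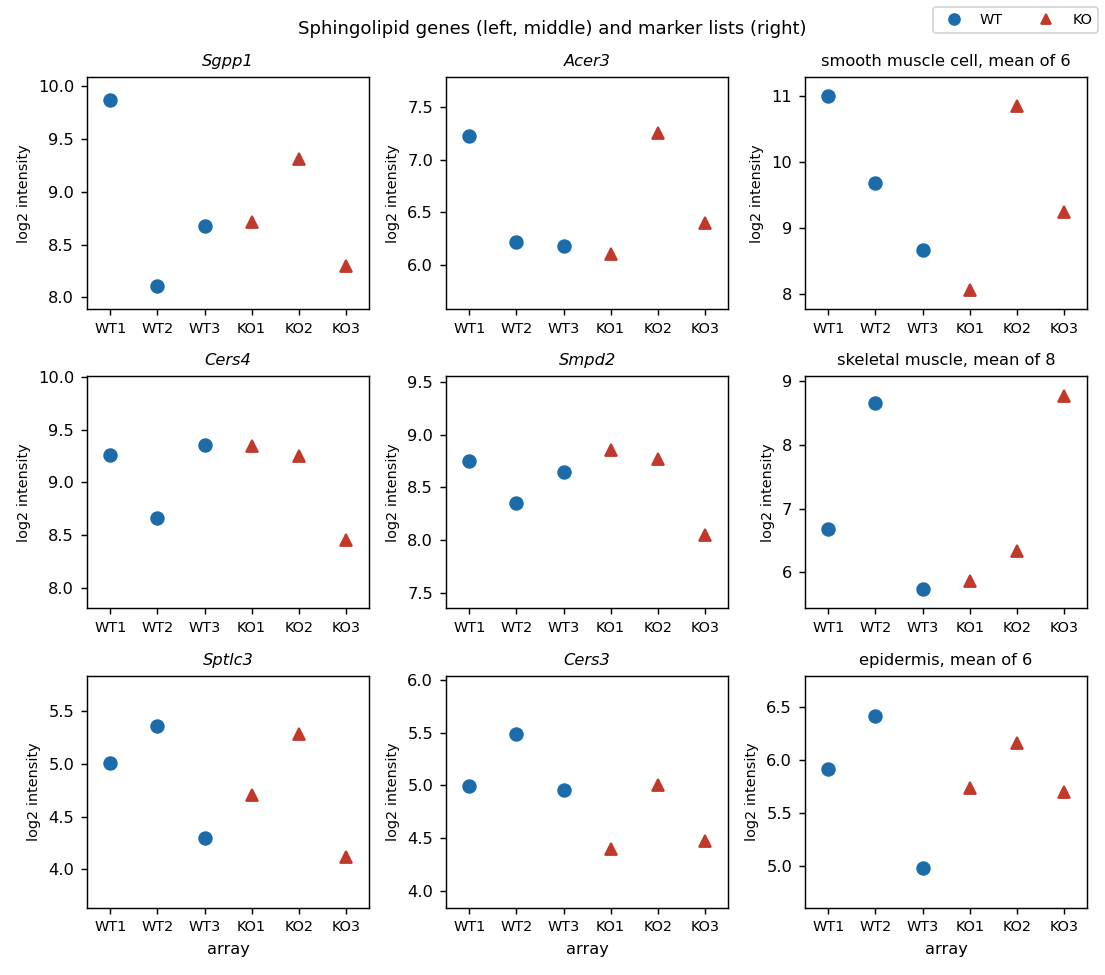
Log2 signal by array of 6 sphingolipid genes (left and middle columns) and mean log2 signal of 3 marker lists (right column), with WT as circles and KO as triangles. Sgpp1, Acer3 and the smooth muscle mean are highest in WT replicate 1 and KO replicate 2, and Cers4 and Smpd2 are lowest in WT replicate 2 and KO replicate 3, where the skeletal muscle mean is highest.

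Without WT replicate 2 and KO replicate 3 the count of called genes was 0, and 13 of the 36 genes changed the sign of their difference. No share of all genes is given here for such changes, so they are not read as a trait of this list. On all 6 arrays the median absolute log2 difference was 0.080 for the 36 genes and 0.067 for all genes. The list was widened by 38 further genes of the pathway, of which 36 were read, among them saposins, glycosidases of the lysosome, ganglioside synthases and lipid phosphatases. Limma called 0 of them, and 0 had an unadjusted p under 0.05. The KO mean was higher for 16 and lower for 20, with a median difference of -0.02. Smpd1, the acid sphingomyelinase, is a neighbour of the deleted gene on its chromosome. It read 9.82, 10.17 and 10.16 in WT and 10.12, 9.98 and 9.82 in KO, with overlap between genotypes and a fold of 0.949 (0.757 to 1.19).

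In this wider list the KO and WT mice were fully apart in 3 genes (8.33%, all genes 4.61%), Ormdl1, Sptssb and Psap. Ormdl1, an inhibitor of serine palmitoyltransferase like Ormdl3, read 6.39, 6.604 and 6.41 in WT and 6.29, 6.38 and 6.16 in KO. The genotypes were apart by only 0.0086 on the log2 scale, and the fold was 0.877 (0.736 to 1.05). The difference of Ormdl1 was -0.44 between KO replicate 3 and WT replicate 2 and -0.06 between the other arrays, and it went from -0.19 to -0.12 without WT replicate 2. Sptssb, a small activating subunit of that enzyme, read 3.40, 7.51 and 3.45 in WT and 3.11, 3.24 and 3.26 in KO. Only WT replicate 2 was high, and the log2 difference of -1.58 became -0.22 without it. The urothelium markers were also highest on that array, with Upk1a at 9.61 there and between 5.23 and 6.41 elsewhere, and their part in the value of Sptssb was not tested. Psap, the precursor of the saposins that help lysosomal enzymes, read 12.05, 12.10 and 12.13 in WT and 12.18, 12.16 and 12.15 in KO, at 1.05-fold (0.924 to 1.20). All KO mice were above the WT mice, by a gap of 0.02 on the log2 scale. Smpdl3a, a relative of Smpd1, had the highest fold of the wider list, 1.23 (0.941 to 1.62), at 9.51, 9.66 and 9.82 in WT and 9.95, 9.70 and 10.25 in KO. The groups overlapped and KO replicate 3 was highest. The log2 difference of Smpdl3a was 0.30, and 0.16 without KO replicate 3.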

How the data were processed

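Adipose RNA of 6 mice, 3 WT and 3 cavin-3 KO, was amplified and hybridised to Mouse Gene 1.0 ST arrays. Per probe set, the authors deposited an intensity on a linear scale. The submitters' processing notes name RMA (background correction, quantile normalization and summary of probes), with no version given. Without the scanner files, which were not used here, no signal over background was known, and a probe set was called dim where its mean log2 signal was below the median of all (6.10). Differences of dim probe sets can be understated by the background that remains in the signal. The array annotation was used for names only, its genome build being not given in the sources used here. Precision is limited by the number of arrays. The median SE of a log2 difference was 0.13, so that a typical 95% interval reached 1.24-fold either way. Median intensity per array was 67.1 to 70.8.

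After log2 transformation, KO and WT were compared in limma 3.58.1 (lmFit, eBayes; R 4.3.3) over all 34760 probe sets, with no covariate and with Benjamini-Hochberg adjustment over all of them. The fit was tested on simulated data with known changes, all far larger than the differences of the listed sphingolipid genes. That test says nothing on the detection of changes as small as theirs. Folds are back-transformed log2 differences. Apart from placing a probe set above or below the median signal of all, signals were not compared between genes. Of the probe sets, 21640 had 1 gene symbol (21553 matched RefSeq), 1321 had several and 11799 were not listed. Start regions came from RefSeq (GRCm38.p6), and where a gene had several windows the one with most CG was used.

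The genes and lists were chosen with earlier results of these data known. Values of every array were given for genes with an unadjusted p under 0.05 or with no overlap, for the 2 smallest p in each role, for Sptlc1, Sptlc2, Degs1, Cers2, Sphk1 and S1pr1, for Smpd1 and for the 3 smallest p of the wider list. Other genes shown by array, and single markers, were picked with their values in view. Marker lists also covered macrophages and Schwann cells (mean log2 signals 8.17 to 8.54 and 5.87 to 6.23, with 0 markers called). Alternatives were other normalizations, probe set choices and variance models, the Student t-test that the methods name, the replicate block, and the fit without each array.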

Additional observations from a re-analysis of the deposited data

How the results depend on the processing

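The count of called sphingolipid genes was 0 under every alternative run, and their median log2 difference ran from -0.0246 to 0.0803 when 1 array was left out. The high end came without KO replicate 3. Dim probe sets and 3 mice per genotype limit what could be detected. Replicate numbers do not pair the mice (same-numbered deviations correlated at -0.15, -0.37 and -0.09). By design the replicate block leaves every difference, and so the median of 0.0048, as it was. With this block the count was 0, and Cers3 had an unadjusted p of 0.00434 and an adjusted p of 0.99999 in limma. Without KO replicate 2, Cers3 and Galc had an unadjusted p of 0.0118 and 0.0386 in limma, and 0 genes were called.

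Of 678 values of single genes under alternatives, 75 changed sign, and 0 crossed the threshold. Some alternatives return the main difference by design and could not change a sign, so the 75 understate how often signs can turn. Among these were the t-test on log2 values, the other variance model, the replicate block and the term for WT replicate 2 and KO replicate 3. The cause was not tested. With group medians the log2 differences with a changed sign were 0.041 for Acer2, 0.0056 for Cers5, 0.030 for Cers6, 0.031 for Cert1, 0.062 for Ormdl3, -0.14 for S1pr2, 0.039 for Sgpp1, 0.12 for Smpd2 and -0.0072 for Ugt8a. With array weights they were 0.047 for Acer2, -0.056 for Asah2, -0.048 for Cerk, 0.0096 for Cert1, -0.070 for S1pr2, 0.11 for Sgpp1, 0.079 for Smpd2 and 0.18 for Sptlc3. Without both WT replicate 2 and KO replicate 3 they were 0.24 for Acer2, -0.021 for Acer3, -0.087 for Asah2, -0.069 for Cerk, 0.036 for Cers5, 0.028 for Degs1, -0.0070 for S1pr1, -0.052 for S1pr2, 0.028 for Sgpl1, 0.11 for Smpd2, 0.032 for Sptlc1, 0.34 for Sptlc3 and -0.034 for Ugt8a. On linear intensity Smpd2 was at 0.0054.

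With 1 array left out at a time, 14 genes kept their sign throughout, but not their size. Their differences ran from 0.030 to 0.19 for Sptlc2, 0.089 to 0.19 for Kdsr, 0.052 to 0.25 for Cers2, -0.71 to -0.35 for Cers3, -0.23 to -0.024 for Degs2, 0.061 to 0.27 for Ugcg, -0.24 to -0.075 for Smpd3, 0.0098 to 0.10 for Smpd4, 0.065 to 0.29 for Galc, 0.067 to 0.27 for Asah1, -0.18 to -0.035 for Sphk2, 0.13 to 0.22 for Sgpp2, 0.036 to 0.24 for Spns2 and 0.022 to 0.24 for S1pr1. Those of the other 22 ran from -0.12 to 0.030 for Sptlc1, -0.48 to 0.10 for Sptlc3, -0.076 to 0.096 for Ormdl3, -0.29 to 0.21 for Cers4, -0.13 to 0.043 for Cers5, -0.28 to 0.11 for Cers6, -0.15 to 0.00058 for Degs1, -0.027 to 0.030 for Cert1, -0.063 to 0.14 for Sgms1, -0.18 to 0.32 for Sgms2 and -0.018 to 0.10 for Ugt8a. They ran from -0.038 to 0.20 for Cerk, -0.18 to 0.23 for Smpd2, -0.083 to 0.14 for Asah2, -0.14 to 0.042 for Acer1, -0.14 to 0.14 for Acer2, -0.29 to 0.39 for Acer3, -0.13 to 0.21 for Sphk1, -0.50 to 0.39 for Sgpp1, -0.11 to 0.075 for Sgpl1, -0.10 to 0.088 for S1pr2 and -0.33 to 0.16 for S1pr3.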
